A study of Drosophila melanogaster with 4 samples.

Results

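The genes described here encode peptide hormones of the enteroendocrine cells, the scattered secretory cells of the gut lining: Tk, NPF, Dh31, AstA, AstC, CCHa1, CCHa2, Mip, Orcokinin and ITP. They were listed by gene symbol, with earlier results of these data known, and all 10 were found among the 13585 gene IDs of the table. The poly(A) RNA of Drosophila melanogaster midguts was read in 4 sequencing libraries, 1 per group: flies with no treatment at 2 h, flies treated with uracil at 2 h, flies with no treatment at 16 h and flies treated with uracil at 16 h. Certain gut bacteria release the nucleobase uracil, to which the gut lining is known to respond by making reactive oxygen. The strain, sex and age of the flies, the dose and route of uracil and the number of guts per library were not given in the sources used here. With 1 library per group, no comparison at a single time or within a single treatment has a replicate to check it against.

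Enteroendocrine cells arise from intestinal stem cells and keep peptides in dense core vesicles, from which they are released when nutrients or other cues reach the gut. Each peptide is cut from a longer precursor and acts through receptors in the gut, its muscle or other organs. In Drosophila, most of these cells belong to one of 2 broad classes, marked by allatostatin C (AstC) or by tachykinin (Tk), and which further peptides a cell makes depends on its class and on its position along the gut. NPF is found mainly in the anterior and middle midgut, whereas DH31 and allatostatin A are found mainly in the posterior midgut.

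Values are normalized counts, the reads of a gene divided by a scaling factor for its library. The libraries held 8500378 (untreated 2 h), 8990316 (uracil 2 h), 16588143 (untreated 16 h) and 8841796 (uracil 16 h) reads assigned to genes. In the same order, 1 read equalled 0.127, 0.118, 0.0584 and 0.111 normalized counts. Brackets after a ratio hold its exact (Clopper-Pearson) 95% interval from the read counts, called its counting interval. It covers counting error only, because these reads carry no molecular identifiers, and it holds nothing of the variation between guts. The interval is narrower for genes with more reads. Shares of all genes with an interval off 1, given beside the hormone counts, were not matched for reads. For counts across genes, a gene was taken as 2-fold apart when its log2 ratio, after adding 1.02 normalized counts to both values, was at least 1 in size. The 8560 genes that averaged 1 CPM (counts scaled to a common library total) or more entered, and all 10 hormone genes were among them.

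The AstA values cannot be assigned to AstA alone. Its line carries the same read count in every library (46, 14, 53 and 267) as the line of ast, the gene asteroid, whose symbol RefSeq also lists among the synonyms of AstA. AstA is therefore kept out of the counts below, which cover the other 9 genes, and its values are given separately.

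The hormone mRNAs formed an abundant and a scarce group. To compare genes, normalized counts were divided by the exon length of each gene in kb (Ensembl BDGP6.54). Over the 4 libraries CCHa2 ranged from 106 to 188 normalized counts per kb with a median of 146. Tk, a tachykinin precursor gene, ranged from 104.3 to 153 with a median of 139, NPF (neuropeptide F) from 87.2 to 143 with a median of 114, and AstC from 58.8 to 134 with a median of 80.6. The ranges of neighbours in this order overlapped. Within libraries CCHa2 was above NPF in each of the 4, and the order of every other pair of these genes differed between libraries. For 2 pairs the reversal lay within counting error. Tk and CCHa2 were at 136.2 and 135.5 in untreated 16 h, and NPF and Tk at 143.4 and 142.1 in uracil 2 h. With the longest transcript as length, CCHa2 was above Tk in each of the 4. Below them came Orcokinin, with a median of 15.6 normalized counts per kb and a maximum of 18.6, and its range did not meet that of AstC. Dh31 (median 7.03), CCHa1 (6.46) and ITP (6.21) followed, each overlapping its neighbour. Mip was lowest, with a median of 2.25 and a maximum of 3.34, below the ITP minimum of 5.55. The line of AstA had a median of 3.06 and a range, 1.13 to 20.3, that overlapped both.

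**Figure D1:**
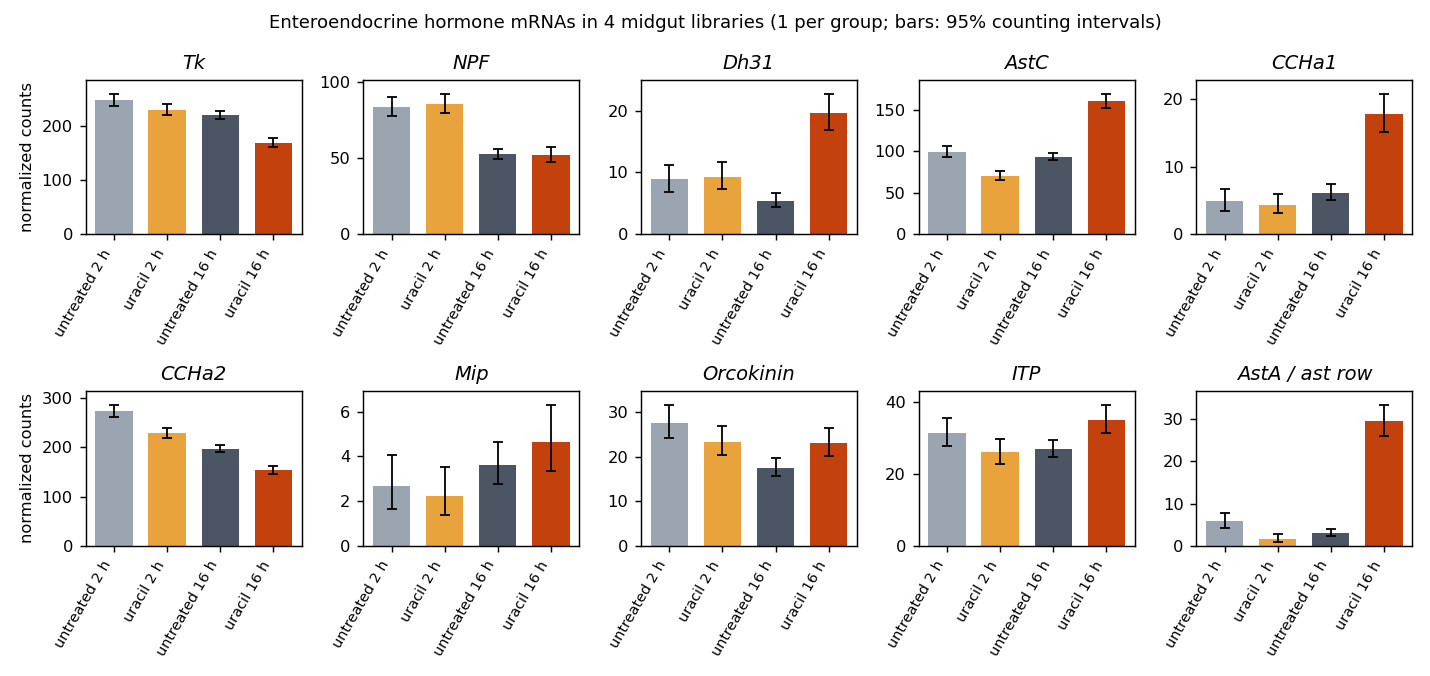
Normalized counts of each hormone gene (y axis, linear and starting at 0, with its own scale per gene) in the 4 libraries (x axis). Bars are single libraries and whiskers are 95% Poisson intervals of the read counts. Dh31, AstC and CCHa1 stand highest in uracil 16 h, at 19.6, 161 and 17.9, whereas Tk, NPF and CCHa2 stand lowest there, at 169, 52.2 and 154.

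At 2 h the question is whether hormone mRNAs differed soon after exposure, and the differences were small. None of the 9 genes was 2-fold higher or 2-fold lower with uracil, where 1.5% of the 8560 genes were higher and 1.51% lower. The median log2 ratio of the 9 genes was -0.17, against 0.01 for all genes tested. The counting interval of the ratio lay below 1 for 4 of the 9 genes and above 1 for 0, and it lay below 1 for 15.7% and above 1 for 16.6% of all genes tested. The intervals of Tk and ITP ended close to 1, at 0.986 and 0.999. Scaling libraries to their column totals alone raised their log2 ratios from -0.11 to -0.09 and from -0.26 to -0.24. That shift would bring both upper ends to 1 or just above, so the count of 4 depends on the scaling.

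AstC, the marker of one enteroendocrine class (FBgn0032336, chromosome 2L, 11076165 to 11081399), was at 99.8 normalized counts in untreated and 70.7 in uracil guts at 2 h, a ratio of 0.708 (0.635 to 0.788). Its log2 ratio of -0.49 was matched or passed on the lower side by 4.84% of all genes tested. CCHa2, a peptide known to link feeding to insulin-like peptide release, was at 274 and 229, a ratio of 0.835 (0.785 to 0.888). Tk was at 249 and 230, with a ratio of 0.926 (0.869 to 0.986). ITP, an ion transport peptide gene, was at 31.3 and 26.0, with a ratio of 0.83 (0.689 to 0.999). Of these 4, AstC was farthest from 1. For the remaining genes at 2 h the counting interval included 1: NPF was at 83.7 and 85.9, Dh31 at 8.88 and 9.33, Orcokinin at 27.6 and 23.4, CCHa1 at 4.95 and 4.37, and Mip at 2.66 and 2.24 normalized counts. The Mip values rested on 21 and 19 reads, so that its ratio of 0.843 could lie between 0.429 and 1.65 from counting alone.

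At 16 h the question is which differences were present after longer exposure, and the genes went in different directions. Dh31 and CCHa1 were 2-fold higher with uracil and none of the 9 was 2-fold lower, where 7.66% of all genes tested were higher and 0.993% lower. The median log2 ratio was 0.37 over the 9 genes and -0.02 over all genes. Counting intervals lay above 1 for 5 of the 9 and below 1 for 2, beside 31.2% and 34.3% of all genes. For 2 of the 9, AstC and ITP, the interval lay below 1 at 2 h and above 1 at 16 h, as it did for 7.21% of all genes tested. That of ITP ended at 0.999 at 2 h, close to 1.

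Dh31 encodes diuretic hormone 31, a peptide related to vertebrate calcitonin that stimulates fluid secretion and gut contraction in Drosophila. The gene (FBgn0032048, chromosome 2L, 8491868 to 8506845) was at 5.43 normalized counts in untreated and 19.6 in uracil guts at 16 h, from 93 and 177 reads. The ratio was 3.61 (2.8 to 4.7), and 2.54% of all genes tested had a log2 ratio at least as high as its 1.68. A far more abundant gene, Bace, lies inside an intron of Dh31 on the same strand. The annotation gives them 0 shared exon bases, and Bace was at 4897 and 5395 normalized counts at 16 h, with a ratio of 1.1 (1.09 to 1.11).

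CCHa1 (FBgn0038199, chromosome 3R, 14092504 to 14096835), which encodes CCHamide-1, was at 6.13 normalized counts in untreated and 17.9 in uracil guts at 16 h, from 105 and 161 reads. The ratio was 2.91 (2.26 to 3.76) and the log2 ratio 1.4, matched or passed by 3.71% of all genes tested. AstC was at 93.9 and 161, a ratio of 1.72 (1.6 to 1.85), with 12% of all genes at or above its log2 ratio of 0.77. Orcokinin was at 17.5 and 23.1 (ratio 1.32, 1.1 to 1.58) and ITP at 26.9 and 34.9 (1.3, 1.12 to 1.5). About 24.0% and 24.5% of all genes were at or above their log2 ratios of 0.38 and 0.37, so neither stood apart. Mip, a myoinhibitory peptide gene, was at 3.62 and 4.66 (1.29, 0.848 to 1.93), with an interval that included 1. ITP shares 296 exon bases with CG4622 on the opposite strand, and the strand setting of the counting is not stated in the labels. CG4622 was lower in the uracil library at 16 h, at 25.1 against 30.7.

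Tk and CCHa2 were the abundant hormone genes on the lower side. Tk (FBgn0037976, chromosome 3R, 11994175 to 12005473) was at 221 normalized counts in untreated and 169 in uracil guts at 16 h, a ratio of 0.765 (0.721 to 0.812). CCHa2 (FBgn0038147, chromosome 3R, 13389059 to 13395197) was at 198 and 154, a ratio of 0.779 (0.732 to 0.83). NPF (FBgn0027109, chromosome 3R, 16609220 to 16611325), whose gut peptide is known in mated females to promote germline stem cell proliferation, was at 52.8 and 52.2, a ratio of 0.989 (0.883 to 1.11).

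**Figure D2:**
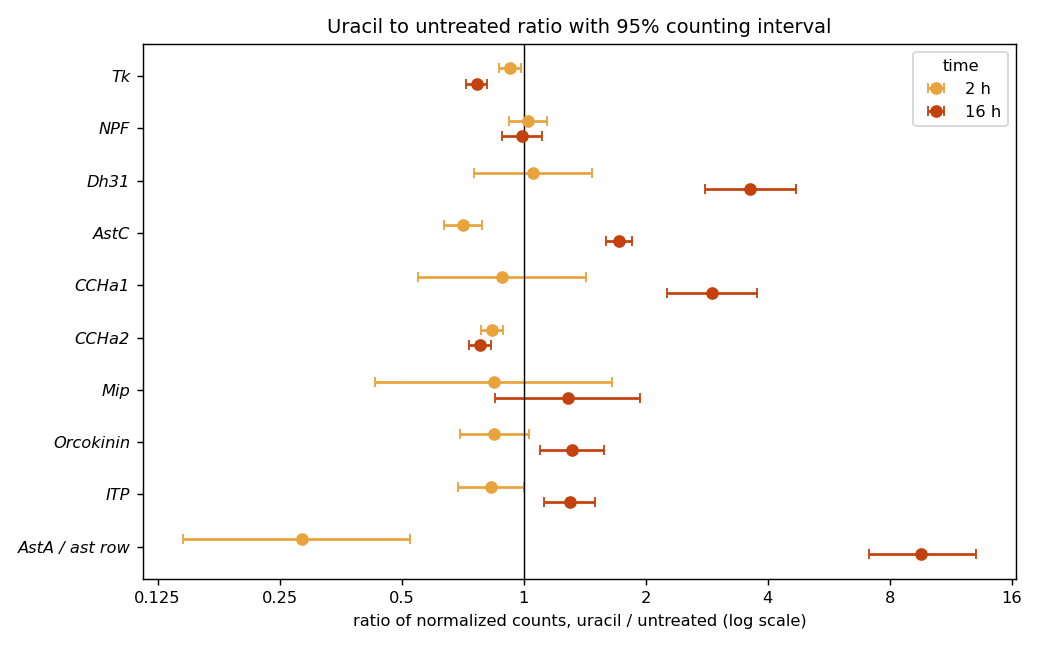
Ratio of normalized counts, uracil over untreated, at 2 h and at 16 h (x axis, log scale) for each hormone gene (y axis), with 95% counting intervals and 1 library per group. At 16 h Dh31 (3.61), CCHa1 (2.91) and AstC (1.72) lie to the right of 1, Tk (0.765) and CCHa2 (0.779) to the left, and NPF (0.989) at 1.

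The line shared by AstA and ast had the widest differences. It held 5.83 normalized counts in untreated 2 h, 1.65 in uracil 2 h, 3.1 in untreated 16 h and 29.6 in uracil 16 h. The uracil to untreated ratio was 0.284 (0.144 to 0.525) at 2 h, from 46 and 14 reads, and 9.56 (7.1 to 13.1) at 16 h, from 53 and 267 reads. Which of these genes the reads came from cannot be told apart in the table.

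Dividing the uracil ratio at 16 h by that at 2 h shows how far the times disagreed. The counting intervals of this quotient are not exact but a normal approximation on the log scale, from the reads of all 4 libraries. This quotient was 3.44 for Dh31 (95% counting interval 2.29 to 5.17), 3.29 for CCHa1 (1.97 to 5.5) and 2.43 for AstC (2.14 to 2.76). ITP (1.57, 1.24 to 1.97) and Orcokinin (1.56, 1.2 to 2.02) also had intervals above 1, which made 5 of the 9 genes, where 24.4% of 8534 genes with reads in every library did. Tk had a quotient of 0.827 (0.758 to 0.901), the 1 gene of the 9 with an interval below 1, where 29.4% of those genes were below. For NPF (0.964), CCHa2 (0.934) and Mip (1.53) the interval included 1. No test of this difference exists with 1 library per group.

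The difference between 2 h and 16 h was read separately in each treatment. In untreated guts none of the 9 genes was 2-fold apart (2.8% of all genes tested were 2-fold higher and 2.84% lower) and 5 of them had counting intervals below 1 and 0 above 1, against 27.6% and 31.1% of all genes. NPF had a ratio of 0.631 (0.57 to 0.699), Dh31 of 0.612 (0.444 to 0.847), Orcokinin of 0.634 (0.531 to 0.758), CCHa2 of 0.72 (0.682 to 0.761) and Tk of 0.888 (0.84 to 0.938). AstC was near its 2 h level at a log2 ratio of -0.09, which became 0.06 when libraries were scaled to their column totals alone. That scaling moved the median log2 ratio of all genes by 0.14 in untreated and by 0.11 in uracil guts, and the log2 ratio of Tk in untreated guts went from -0.17 to -0.02, below the median of all genes in both cases.

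In uracil guts AstC and CCHa1 were 2-fold higher at 16 h than at 2 h, where 9.38% of all genes were 2-fold higher and 2.9% lower. Counting intervals lay above 1 for 5 of the 9 genes and below 1 for 3, beside 28.7% and 31.5% of all genes. CCHa1 had a ratio of 4.08 (2.84 to 6.01) and AstC of 2.28 (2.07 to 2.51). Dh31 had a ratio of 2.1 (1.6 to 2.78), and its log2 ratio of 1.0 after the added 1.02 counts fell just short of the 2-fold rule. Mip (2.07, 1.18 to 3.78) and ITP (1.34, 1.13 to 1.6) were higher too. NPF (0.608, 0.54 to 0.684), CCHa2 (0.672, 0.627 to 0.721) and Tk (0.734, 0.686 to 0.785) were lower, and Orcokinin was level at 0.986 (0.808 to 1.2). NPF thus had nearly the same ratio over time in both treatments.

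Across the 4 libraries, uracil 16 h held the highest value of 5 of the 9 genes (Dh31, AstC, CCHa1, Mip and ITP) and the lowest value of 3 (Tk, NPF and CCHa2). Of all genes tested, 30.2% were highest and 31.9% lowest in that library. Uracil 2 h held the lowest value of 4 of the 9 (AstC, CCHa1, Mip and ITP), where 23.2% of all genes were lowest.

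Effects common to both times (uracil) or to both treatments (time) can be tested over all genes with limma, where the 1 residual degree of freedom is the disagreement between times. No hormone gene passed an FDR of 0.05 for uracil, with adjusted p of 0.999 for each (0.829 to 1.0 over the alternatives of the 9 genes), and 0 of 9 were at an unadjusted p under 0.05. With edgeR 0 of 9 passed and 0 were under the unadjusted threshold. Of the 8560 genes, 0.035% passed as higher and 0% as lower with limma and 0.0584% passed with edgeR, while 4.58% with limma and 4.98% with edgeR had an unadjusted p under 0.05. Of the 9, Dh31 had the largest fitted uracil effect, a log2 difference of 0.87 with an SE of 0.41 and a limma adjusted p of 0.999. Its uracil to untreated ratio was 3.61 at 16 h but 1.05 (0.753 to 1.47) at 2 h, an interval that included 1. For time, 0 of 9 passed with either tool, and 3 of 9 had an unadjusted p under 0.05 with limma and 3 with edgeR, beside 16% of all genes with limma and 15.7% with edgeR. The share of all genes past the limma FDR for time was 0.187% higher and 0.234% lower, and 0.304% passed with edgeR. The 3 were NPF (-0.68, SE 0.205, limma adjusted p = 0.198, 0.113 to 0.268 over the alternatives), CCHa2 (-0.52, SE 0.189, limma adjusted p = 0.263, 0.182 to 0.389) and CCHa1 (1.03, SE 0.411, limma adjusted p = 0.294, 0.145 to 0.337). NPF and CCHa2 had counting intervals below 1 over time in both treatments. CCHa1 had a ratio of 1.24 (0.851 to 1.84) in untreated guts, an interval that included 1, and of 4.08 in uracil guts.

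The summed level of the 9 genes differed less between libraries than their mix. The sum was 782 normalized counts in untreated 2 h, 681 in uracil 2 h, 625 in untreated 16 h and 637 in uracil 16 h. Per kb of exon, AstC made up 13.7%, 10.96%, 16.6% and 27.2% of the 9-gene total in the same order of libraries, and was the most abundant of them in uracil 16 h. CCHa2 made up 31.1%, 29.3%, 28.9% and 21.4%, Tk 25.4%, 26.5%, 29.0% and 21.1%, and NPF 23.1%, 26.7%, 18.8% and 17.7%. CCHa1 went from 0.955%, 0.951% and 1.52% to 4.22%, and Dh31 from 1.13%, 1.34% and 0.894% to 3.07%. All of these shares stood farthest from the others in the uracil 16 h library, except that of NPF, which was similar in both 16 h libraries.

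**Figure D3:**
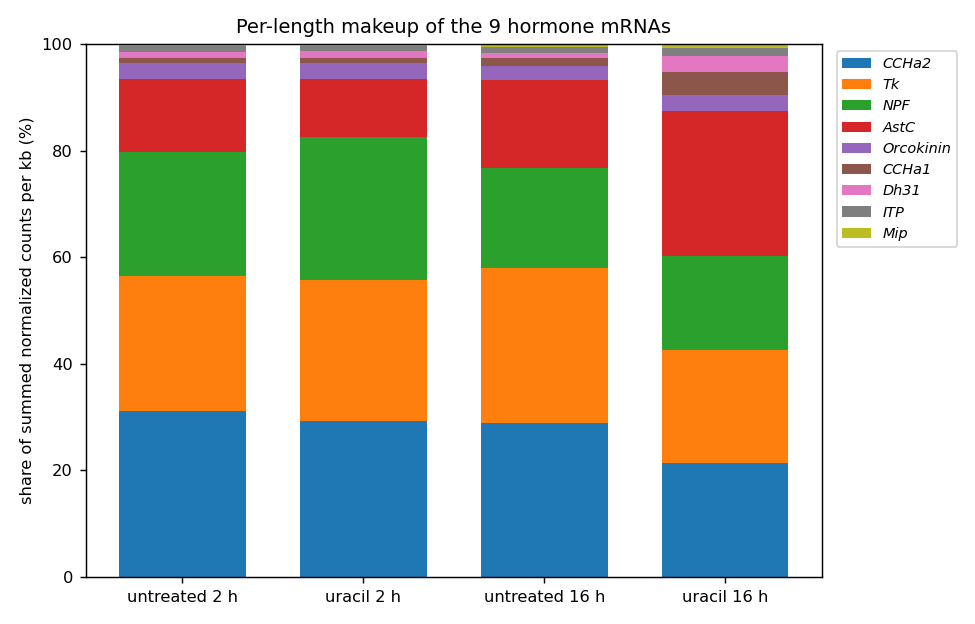
Share of each hormone gene in the summed normalized counts per kb of exon of the 9 genes (y axis, percent) in the 4 libraries (x axis). AstC takes 27.2% in uracil 16 h and 10.96% to 16.6% elsewhere, and the line shared by AstA and ast is left out.

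Ratios of reads between hormones of the same library do not depend on how libraries were scaled. The AstC to Tk read ratio was 0.401 (0.369 to 0.436) in untreated 2 h, 0.307 (0.279 to 0.336) in uracil 2 h, 0.425 (0.401 to 0.451) in untreated 16 h and 0.954 (0.887 to 1.03) in uracil 16 h. AstC and Tk mark different enteroendocrine classes, and their mRNAs were nearly equal in reads only in that last library of the 4. Dh31 to Tk, a pair known to be made together in posterior cells, was 0.0357, 0.0405, 0.0246 and 0.116 in the same order, with intervals of 0.0198 to 0.0302 and 0.0988 to 0.136 at 16 h. CCHa1 to CCHa2 was 0.018, 0.0191, 0.031 and 0.116. CCHa2 to Tk stayed between 0.895 and 1.1, and NPF to Tk between 0.239 and 0.373. In bulk tissue, fewer cells of a type and less RNA per cell cannot be told apart.

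Transcription factor genes of the enteroendocrine lineage differed in both directions at 16 h. Of the 12 tested, 5 had a uracil to untreated counting interval below 1 and 2 above 1, beside 34.3% and 31.2% of all genes. The gene pros, which encodes the homeodomain protein Prospero that marks all enteroendocrine cells, was at 17.1 normalized counts in untreated 2 h, 14.9 in uracil 2 h, 19.9 in untreated 16 h and 11.5 in uracil 16 h. Its uracil to untreated ratio was 0.87 (0.677 to 1.12) at 2 h and 0.579 (0.46 to 0.723) at 16 h. Reads of AstC per read of pros were 5.83, 4.75, 4.71 and 14.0 in the 4 libraries, and reads of Dh31 per read of pros 0.519, 0.627, 0.273 and 1.7. Tk per pros was 14.5, 15.5, 11.1 and 14.7. The homeobox genes Ptx1 and vnd, the most abundant of the list in reads, had ratios of 0.663 (0.628 to 0.698) and 0.618 (0.588 to 0.648) at 16 h. In untreated 16 h they were at 318 and 393 normalized counts, far above pros at 19.9. Which cells these reads came from was not tested. Ptx1 is counted again among the regional factors below. Of the same 12 genes, 1 was 2-fold lower at 16 h and 0 higher (median log2 ratio -0.16, with -0.02 for all genes), and 1 was 2-fold lower at 2 h. The first was tap, which encodes a bHLH factor of enteroendocrine precursors, at 3.55 against 8.18 (ratio 0.434, 0.286 to 0.641). The second was ct, a homeodomain factor gene known from Malpighian tubules and sensory organs as well, whose uracil value was 2.24 at 2 h (untreated 5.58) and 24.95 at 16 h (untreated 13.3). Its ratios were 0.402 (0.222 to 0.704) and 1.88 (1.56 to 2.27), so that ct, like AstC, was lowest in uracil 2 h and highest in uracil 16 h. The other gene above 1 at 16 h was ttk, which encodes the repressor Tramtrack, with a ratio of 1.15 (1.05 to 1.25). None passed the limma FDR for uracil or time.

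Processing and secretion genes differed in both directions at 16 h. All 5 tested genes of precursor processing were less than 2-fold apart at both times, with medians of -0.08 at 2 h and 0.05 at 16 h. The prohormone convertase gene amon was at 42.1, 37.6, 44.9 and 33.6 normalized counts in the 4 libraries, and svr, a carboxypeptidase D gene, at 159, 150, 158 and 237. Of 10 tested genes of dense core vesicle secretion, 1 was 2-fold higher at 16 h and 0 lower, and 0 were apart at 2 h. It was unc-13, a vesicle priming gene, at 135 against 60.4. The medians were 0.05 at 2 h and -0.09 at 16 h. The most abundant of the list in reads, IA-2, which encodes a dense core vesicle protein, was at 217 with uracil and 352 without at 16 h, a ratio of 0.617 (0.586 to 0.65). Syx1A, the syntaxin gene, was at 57.0 and 94.0, a ratio of 0.606 (0.548 to 0.67).

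Receptors of these hormones had median log2 ratios of 0.42 at 2 h and 0.64 at 16 h over 7 tested genes, against 0.01 and -0.02 for all genes. At these times 0 and 1 receptor genes were 2-fold higher and none lower. Counting intervals lay above 1 for 4 of the 7 at 2 h and 7 at 16 h, beside 16.6% and 31.2% of all genes, and below 1 for 0 at either time. AstA-R2, a receptor for allatostatin A, was at 13.9 in untreated and 19.0 in uracil guts at 2 h and at 18.3 and 59.2 at 16 h, a ratio of 3.24 (2.81 to 3.74). Dh31-R, the most abundant receptor of the list in reads, was at 124, 137, 84.9 and 104.5 in the 4 libraries. Visceral muscle markers, also higher with uracil at both times, summed to 2246 and 3243 at 2 h and to 2412 and 4036 at 16 h. Of 11 muscle markers 1 was 2-fold higher at 2 h and 6 at 16 h. Their part in the receptor values was not tested. Nutrient and stretch sensor genes of enteroendocrine cells had 3 tested members, 0 of them 2-fold apart at either time.

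Other peptide genes were mostly absent or scarce. Of 16 in the table, 11 fell below the mean of 1 CPM, and 1 of the 5 tested, Akh, passed that filter only through the uracil 16 h library. Of the other 4, 1 was 2-fold higher with uracil at 16 h and 0 lower (median log2 ratio 0.76), and 0 were apart at 2 h (median -0.48). Burs, which encodes a bursicon subunit that enteroendocrine cells also make, was at 9.13 and 5.32 at 2 h and at 4.85 and 12.6 at 16 h, a ratio of 2.61 (1.95 to 3.5) at 16 h. Akh encodes adipokinetic hormone, the product of the corpora cardiaca, a gland attached to the foregut. It had 0 reads in both 2 h libraries, where 3 reads would be 0.38 and 0.354 normalized counts, then 8 reads in untreated 16 h and 99 in uracil 16 h. That made 0.467 and 10.98 normalized counts, a ratio of 23.5 (11.5 to 55.9).

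Markers of neighbouring tissues also differed between these libraries, and their part in the hormone differences was not tested. Markers of the Malpighian tubule, the renal organ that joins the gut at the end of the midgut, summed to 598 normalized counts in untreated 2 h, 383 in uracil 2 h, 547 in untreated 16 h and 1424 in uracil 16 h over 13 genes. Of the 12 tested, 6 were 2-fold lower with uracil at 2 h and 11 were 2-fold higher at 16 h, and the urate oxidase gene Uro was at 82.6, 14.2, 67.2 and 210. The gene cad, which encodes the homeodomain factor Caudal of the posterior gut, was at 27.1, 10.04, 31.0 and 111 normalized counts. It is one of 14 regional and hindgut factors looked at after the hormone values were seen. Its uracil to untreated ratio was 0.37 (0.284 to 0.478) at 2 h and 3.57 (3.21 to 3.98) at 16 h. The lowest value was in uracil 2 h and the highest in uracil 16 h for cad and the tubule sum. The same held for AstC, CCHa1, Mip, ITP and the line shared by AstA and ast. For CCHa1 (0.548 to 1.42) and Mip (0.429 to 1.65) the counting interval of the uracil ratio at 2 h included 1. Of all genes tested, 23.2% were lowest in uracil 2 h and 30.2% highest in uracil 16 h. The share with both was not counted. Of the 9 tested regional factors, 3 were 2-fold higher at 16 h and 1 was 2-fold lower at 2 h, while the median log2 ratios were -0.23 at 16 h and -0.1 at 2 h. Their counting intervals at 16 h lay above 1 for 4 and below 1 for 5, beside 31.2% and 34.3% of all genes. Of 4 hindgut factors, the 1 tested was drm, at 16.5, 14.1, 20.8 and 55.3 normalized counts, with a uracil to untreated ratio of 2.66 (2.32 to 3.06) at 16 h. The genes otp and en were at 0 to 0.38 normalized counts, and byn had 0 reads in every library.

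Neurons make several of the same peptides, and the part of neuron markers in the hormone values was not tested. Their sum over 9 genes was 24.5, 23.2, 30.1 and 25.8 normalized counts, with 0 of 6 tested genes 2-fold apart at either time, and the sum was highest in untreated 16 h. The RNA-binding protein gene elav was at 4.44, 5.32, 6.13 and 3.44, and the synaptotagmin gene Syt1 at 4.18, 4.37, 5.55 and 6.88. Of 5 tested photoreceptor markers, 3 (ninaE, Arr1 and Arr2) passed the filter only through untreated 16 h, with ninaE at 22.5 there and at 0 to 0.665 elsewhere. The other 2, norpA and trp, were at 24.9 and 2.57 in untreated 16 h and at 24.8 and 2.44 in uracil 16 h. Enterocyte markers summed to 37218, 34567, 18398 and 22263, and those 2-fold apart with uracil were 1 higher and 2 lower of 13 at 2 h and 6 higher and 0 lower at 16 h. Stem cell and enteroblast markers, at sums of 69.5 to 75.6, had 0 of 5 genes 2-fold apart at 2 h and 1 lower at 16 h. Hemocyte markers summed to 75.5 to 104.5 over 10 genes, with 1 of 7 tested genes 2-fold higher and 3 lower at 16 h. Fat body markers summed to 858 (in uracil 16 h) to 1160, with 1 of 5 tested genes 2-fold higher and 0 lower at 16 h. Their counting intervals at 16 h lay below 1 for 4 genes and above 1 for 1, beside 34.3% and 31.2% of all genes, with a median log2 ratio of -0.2. Of 7 female germline markers, 6 were 2-fold higher with uracil at each time, and their sums were 91.9 and 238 at 2 h and 36.8 and 136 at 16 h.

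**Figure D4:**
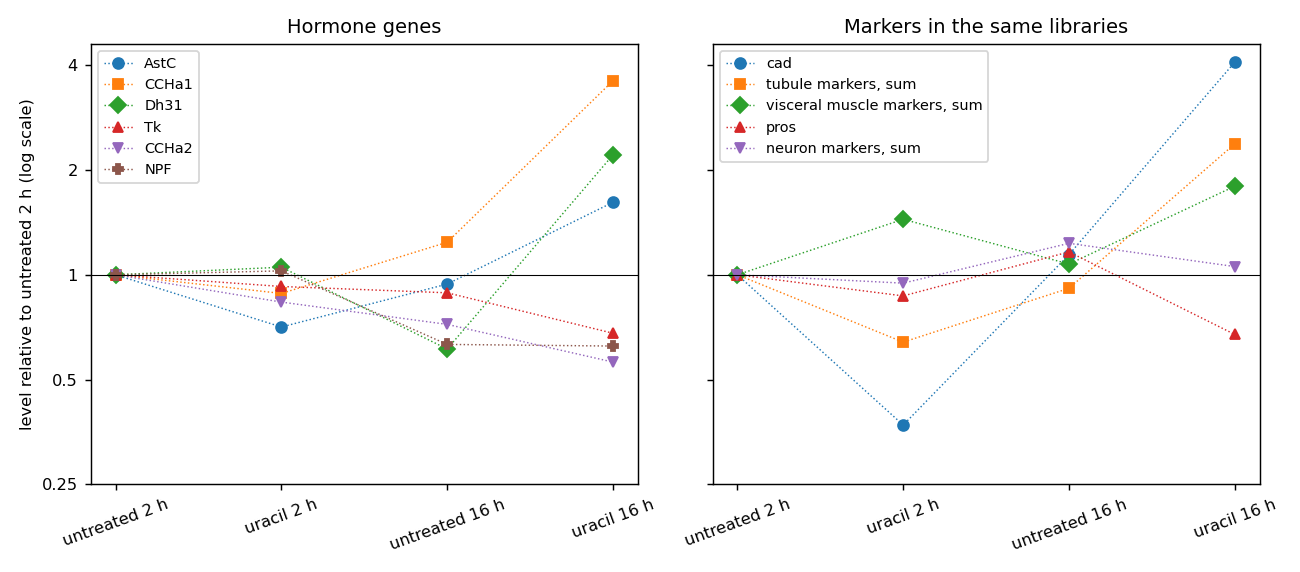
Levels relative to untreated 2 h (y axis, log scale) in the 4 libraries (x axis) for 6 hormone genes on the left and for cad, pros and 3 summed marker lists on the right. Dotted lines only join the points of a gene or list, with 1 library per point. In uracil 16 h the tubule sum (1424 normalized counts), the visceral muscle sum (4036), cad (111), AstC, CCHa1 and Dh31 stand high. In the same library pros (11.5), Tk, CCHa2 and NPF stand low. The gene cad was picked after the hormone values were seen. Of the 9 tested regional factors, 4 had uracil to untreated counting intervals above 1 at 16 h and 5 below.

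Among themselves, Tk and CCHa2 had the most alike profiles, with a distance of 0.24 between their log2 values centred over the 4 libraries, followed by NPF and CCHa2 (0.36) and AstC and Mip (0.41). Among 6568 other genes that averaged 10 CPM or more, those closest to the mean profile of the 9 hormone genes were CG34236 (distance 0.03), Serinc (0.03) and dap (0.04). With only 4 libraries such a match is common, and 254 genes lay within a distance of 0.2. The mean of the 9 also joins unlike profiles, with Tk and CCHa1 at a distance of 1.84 from each other, so closeness to it is not closeness to each hormone gene.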

How the data were processed

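The table of normalized counts deposited by the authors holds a signal value per gene and library. Tools in the submitters' processing notes are HTSeq, edgeR, Bowtie, TopHat2 2.0.5 and cutadapt 1.0, with no settings. Build and strandedness were not given in the sources used here. All values (100%) were whole multiples of 1 step per library within 0.01 reads, so reads were recovered. The 118 lines that shared 57 IDs were summed to 13585 IDs, of which 12888 had a symbol. IDs sharing all 4 read counts with another (84, at 40 reads or more) were left out of lists. Ratios carry Clopper-Pearson intervals (scipy 1.17.1), and quotients of the uracil ratios carry normal-approximation intervals on the log scale. The shared effects were fitted with limma 3.58.1 (R 4.3.3; additive, trended, prior of 5.33 degrees of freedom, log2 of the value plus 1.02, Benjamini-Hochberg FDR 0.05), with edgeR 4.0.16 on recovered reads as an alternative. DESeq2 1.42.0 gave alternative size factors. The fits were also run on simulated counts in which uracil changed genes by the same fold at both times. That setting does not cover genes whose uracil ratios differ between times, such as Dh31 and AstC. The genes and lists were chosen with earlier results of these data known. From each list up to 3 genes that were 2-fold apart with uracil and tested were to be named, plus all hormone genes, and other named genes were chosen after their values were seen. Lengths and coordinates come from Ensembl (BDGP6.54) by ID and need not match the build of the reads.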

Additional observations from a re-analysis of the deposited data

Results flagged for a closer look

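For 3 hormone lines, the uracil library lay below the untreated one at 2 h and above it at 16 h, with counting intervals that excluded 1 at both times. The uracil to untreated ratio of AstC was 0.708 at 2 h and 1.72 at 16 h. That of ITP was 0.83 and 1.3, and that of the line shared by AstA and ast was 0.284 and 9.56. The 2 h interval of ITP ended at 0.999, so its place below 1 rests on a narrow margin. Its log2 ratio at 2 h went from -0.26 to -0.24 when libraries were scaled to their column totals. With that shift the interval would include 1, and ITP would no longer have the pattern. The difference between times was not tested, since each ratio rests on 1 library a group, and 7.21% of all 8560 genes tested had the same pattern.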

How the results depend on the processing

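Of 398 values of single hormone genes under alternative settings, 390 stayed within their counting interval or on their side of the test and 8 moved, 6 of them ratios over time under scaling to the column total and 2 per-length levels (longest transcript in place of all exons, added after seeing the data). With a filter at a mean of 10 CPM, which leaves CCHa1 out, 1 hormone gene was 2-fold higher with uracil at 16 h and 1 in uracil guts over time, where Dh31 made it 3 with a pseudocount worth 0.5 CPM, scaling to the column total or DESeq2 size factors. With that filter the counts over all genes became 41 higher at 2 h, 355 higher at 16 h, 137 higher and 155 lower over time in untreated guts, and 425 higher and 165 lower in uracil guts, from fewer genes. A pseudocount worth 2 CPM gave 82 higher at 2 h, and scaling to the column total 379 higher over time in untreated guts. Genes past the FDR for the shared uracil effect numbered 3 higher and 0 lower, and became 28 higher and 1 lower with no filter, 14 higher with scaling to the column total and 5 higher with edgeR. For time they numbered 16 higher and 20 lower, and became 183 and 146 with no filter, 222 and 85 with that scaling, 0 and 0 without trend, and 13 lower with edgeR. The causes were not tested. No hormone gene passed under any of these. No library could be left out of a comparison of 1 against 1. No paired analysis was possible because each group has 1 library and so 1 replicate number, beyond the fits of shared effects, which compare treatments within each time. Depth limits Mip, with 19 to 62 reads a library.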

Other observations

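CNMa, a peptide gene of the gut lining and nervous system named here after its values were seen, was set apart by time more than by uracil. It was at 25.1 normalized counts in untreated and 20.6 in uracil guts at 2 h, and at 3.45 and 7.21 at 16 h. The ratio of 16 h to 2 h was 0.137 (95% counting interval 0.101 to 0.184) in untreated and 0.351 (0.26 to 0.469) in uracil guts, so that it was lower at 16 h in both treatments.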
